A study of Homo sapiens with 10 samples.

Results

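Mitochondrial ribosomal proteins were followed in 10 libraries of long-read Ribo-STAMP, and were defined as the genes whose symbol starts with MRPL or MRPS and a digit. The files listed 73 such genes among 10628 genes with at least 1 edited read, and 5 more annotated ones (MRPL2, MRPL34, MRPL45, MRPL53 and MRPS11) were in none of them. By their place in the ribosome 47 belonged to the large subunit and 25 to the small subunit. MRPS36 stood apart, since its product is now known as a part of the 2-oxoglutarate dehydrogenase complex.

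The mitochondrial ribosome makes the few proteins of the respiratory chain that mitochondrial DNA encodes. Its RNAs come from that DNA, whereas all of its proteins are encoded in the nucleus, translated on cytosolic ribosomes and imported. The mRNAs followed here are thus clients of the cytosolic ribosome, the one that Ribo-STAMP marks.

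Ribo-STAMP fuses the cytidine deaminase APOBEC1 to RPS2, a protein of the cytosolic small subunit, so that C-to-U edits collect on mRNAs in contact with ribosomes. Full-length polyadenylated transcripts were read on a PacBio instrument, and edits were deposited for positions of the coding sequence. HEK293T, a human embryonic kidney line, carried a doxycycline-inducible vector for either APOBEC1 alone (n = 3) or the fusion (n = 3), induced with 1 ug/mL for 72 h. MDA-MB-231 is a cell line from a triple-negative breast cancer, and it carried the inducible fusion for 48 h with 1 ug/mL doxycycline, either untreated (n = 2) or with 100 uM CoCl2 for 48 h (n = 2). CoCl2 is used to mimic hypoxia, and the MDA-MB-231 libraries have no APOBEC1-only control among the samples analysed here. No label says that a line is a single clone or that replicates are separate cultures, so p-values measure the spread between these libraries only. Library kits and induction times differed between the lines, and no test was made between them.

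Each library is known only through its listed positions. The reads on listed isoforms numbered 1120240 to 1204721 in MDA-MB-231, 81592 to 110526 with APOBEC1 alone and 157544 to 203094 with the fusion in HEK293T. No position was listed in all 4 MDA-MB-231 libraries, so a 0 below means not listed. The neuronal genes NEFM and INA, known from HEK293T, had edited reads in HEK293T libraries alone, while CD44, ANXA1 and AXL had them in MDA-MB-231 alone. VIM, a mesenchymal gene known from MDA-MB-231, also had 1 edited read in APOBEC1-only 2, and 2 and 29 in Ribo-STAMP 2 and 3, and CAV1 had 1 in Ribo-STAMP 2. EPCAM, an epithelial gene, had 5 to 18 edited reads in MDA-MB-231 and 0 in HEK293T. NEFL, CDH1 and ESR1 were at 0 in every library, and CKB, a HEK293T marker, also had 43 to 145 edited reads in MDA-MB-231. Of 10 hypoxia genes listed as a check, 6 could be tested for coverage in MDA-MB-231. Of these 3 rose (limma, adjusted p under 0.05), namely BNIP3, BNIP3L and ADM, where 24.1% of 5673 genes rose. For edited reads 4 could be tested, where 12.1% of 4097 genes rose. BNIP3 and BNIP3L rose, while NDRG1 and P4HA1 did not pass (log2 changes of 0.05 and 0.26). The read-weighted mean length of the annotated transcripts was 2803 and 2575 bases in the untreated libraries and 2313 and 2326 bases with CoCl2.

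The edited positions themselves show what the editor left on these transcripts. The 8 positions with the most edited reads over the MDA-MB-231 libraries lay in MRPL13, MRPL15, MRPL37, MRPL14, MRPL3, MRPL24 and MRPS2, and 6 of them are printed with 15 bases of the transcript on each side, read 5′ to 3′ from GENCODE 29 (GRCh38), with the edited C in capitals.
MRPL37 codon 230: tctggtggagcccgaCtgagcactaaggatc
MRPL14 codon 74: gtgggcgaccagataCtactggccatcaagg
MRPL3 codon 290: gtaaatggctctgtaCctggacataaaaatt
MRPL24 codon 92: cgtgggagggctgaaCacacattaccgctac
MRPL37 codon 406: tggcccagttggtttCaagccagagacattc
MRPS2 codon 240: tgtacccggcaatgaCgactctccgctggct

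In 5 of these 6 windows the edited C follows an A, and in the other it follows a T, which is the U of the RNA. The MRPL37 site at codon 230, position 54209987 of chromosome 1 in exon 4 of 7, had 0, 5, 4 and 4 edited reads in untreated 1, untreated 2, CoCl2 1 and CoCl2 2, the order used for all MDA-MB-231 values below. The MRPL14 site, position 44114061 of chromosome 6, had 0, 0, 7 and 5 edited reads, on 423 and 362 covering reads in the CoCl2 libraries. Edited shares at single positions were low: the MRPL3 site, position 131468117 of chromosome 3, was edited in 1.10%, 0.938% and 1.52% of covering reads in the 3 libraries that list it.

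The other windows come from position 156738346 of chromosome 1 in MRPL24, where the bases span a join of exons, position 54218195 of chromosome 1 in MRPL37 and position 135503962 of chromosome 9 in MRPS2. The MRPL24 site had 0, 2, 7 and 2 edited reads. The second MRPL37 site had 4, 2, 5 and 0, and the MRPS2 site had 3, 0, 3 and 5. None of these positions carries a count large enough to compare the groups by itself. The leading sites in MRPL13 and MRPL15 had 0, 2, 10 and 5 and 0, 2, 9 and 3 edited reads. Of the 8 changes 6 were synonymous, while those in MRPL3 and MRPL15 were missense.

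Over the whole set 2760 coding positions were edited in MDA-MB-231. Of these, 1669 were listed in 1 library, 722 in 2 and 369 in 3, and 1492 rested on a single edited read. A or U preceded the C at 85.4%, 88.9%, 86.1% and 84.9% of member positions, against 41.6% of all coding C of the same isoforms. For all genes the shares were 81.3%, 80.6%, 80.1% and 80.0%, against 43.4%. An A or U before the C is the known preference of APOBEC1, and it held in each library. Of the 2760 changes 182 would create a stop codon.

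Edited positions were fewer at the start of the member coding sequences. The first 10% of the sequence held 5.19%, 5.94%, 6.96% and 6.53% of the positions, below 8.68% of the coding C after A or U in the same isoforms. For all genes it held 9.18%, 9.10%, 8.92% and 8.94%, close to the 9.26% of such C. In most of these proteins the start of the coding sequence encodes the signal for import into mitochondria. In a short coding sequence the first 10% also spans fewer bases from the start codon. The difference between members and all genes was seen in every library. It was not tested, and neither was its relation to the import signal or to coding length.

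**Figure D1:**
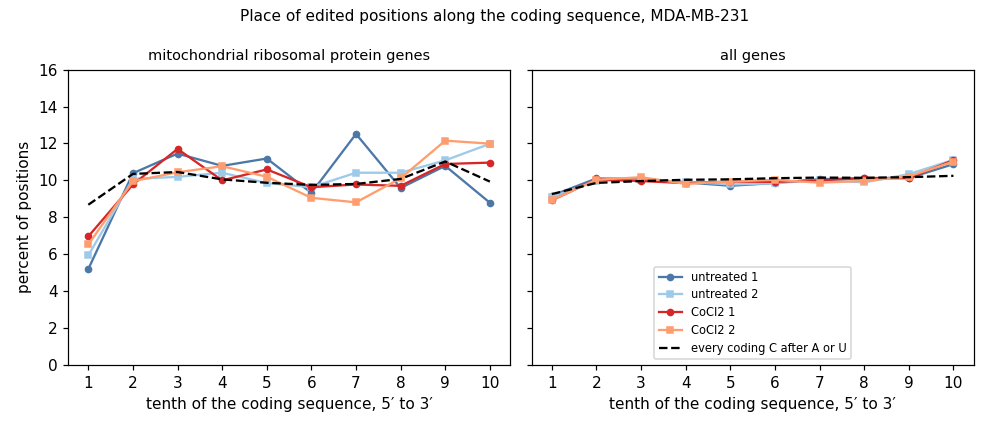
Percent of edited positions in each 10% step of the coding sequence, 5′ to 3′, for mitochondrial ribosomal protein genes (left) and all genes (right). Lines with points are the 4 MDA-MB-231 libraries, and the dashed line is every coding C after A or U. In the first step the member libraries sit at 5.19% to 6.96%, below the dashed line at 8.68%, whereas the lines for all genes stay near theirs.

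Coverage of the members rose with CoCl2. Coverage is the number of reads over an isoform, summed over the isoforms listed in every library of the line and scaled by TMM, and it stands in for mRNA abundance. In bulk RNA, fewer cells that carry an mRNA and less of it per cell cannot be told apart. Of the 73 members 67 had an isoform listed in all 4 MDA-MB-231 libraries. Each had a mean coverage of at least 10 and was tested. The other 6, without such an isoform, were MRPL30, MRPL40, MRPL55, MRPS18B, MRPS36 and MRPL49, the last listed in HEK293T only. With all listed isoforms counted, 71 members had a mean coverage of at least 10. Coverage rose in 42 of the 67 and fell in 3 at an adjusted p under 0.05 (limma), where 24.1% of 5673 genes rose and 19.4% fell. The median log2 change was 0.81 for the members and -0.05 for all genes. The 42 rises spanned log2 changes of 0.63 to 1.26. The CoCl2 libraries both exceeded the untreated ones in 53 members and below them in 5, against 38.7% and 39.5% of all genes. With either CoCl2 library left out, 0 members rose, and at most 2 of all genes did.

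The most covered member was MRPL37, which encodes a large-subunit protein with no bacterial counterpart, at 337, 397, 670 and 627 reads. The CoCl2 values were well above the untreated ones (log2 change 0.82 ± 0.20 SE, adjusted p = 0.00397). MRPL12, the stalk protein that contacts translation factors, had 217, 303, 565 and 502 reads and the same order of groups (1.05 ± 0.21, adjusted p = 0.00203). MRPL38, of the central protuberance, had 188, 255, 430 and 423 reads (0.96 ± 0.21, adjusted p = 0.00292). MRPL14, the counterpart of a bacterial protein at the subunit interface, had 184, 247, 390 and 395 reads (0.88 ± 0.21, adjusted p = 0.00457).

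Not every abundant member moved. MRPL3, whose bacterial counterpart lies near the peptidyl transferase centre, had 297, 344, 326 and 353 reads. Its groups overlapped, with a log2 change of 0.09 ± 0.20 (adjusted p = 0.739). MRPS10, a small-subunit protein with a bacterial counterpart, had 374, 289, 242 and 234 reads, lower in both CoCl2 libraries, and did not pass the test (-0.46 ± 0.21, adjusted p = 0.0792).

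The 12 largest rises were those of MRPL23, MRPL15, MRPL18, MRPL36, MRPL41, MRPS34, MRPS23, MRPS24, MRPS26, MRPS18A, MRPL24 and MRPL28, with log2 changes of 1.12 to 1.26. MRPL15, the counterpart of a bacterial large-subunit protein, had 91.3, 114, 242 and 247 reads. The groups lay far apart and the replicates close together (1.25 ± 0.23, adjusted p = 0.00167). In MRPS34, a small-subunit protein specific to mitochondria, the reads were 111, 160, 302 and 314, again without overlap (1.20 ± 0.23, adjusted p = 0.00182). MRPL23, which lies at the exit tunnel, led the list on few reads, with 18.1, 22.7, 60.4 and 41.3 (1.26 ± 0.34, adjusted p = 0.00771). The small-subunit proteins MRPS24, with 75.1, 102, 201 and 194 reads, and MRPS26, with 98.9, 134, 262 and 250 reads, also showed no overlap. MRPS18A, despite its name a protein of the large subunit, had 66.6, 97.3, 197 and 159 reads.

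**Figure D2:**
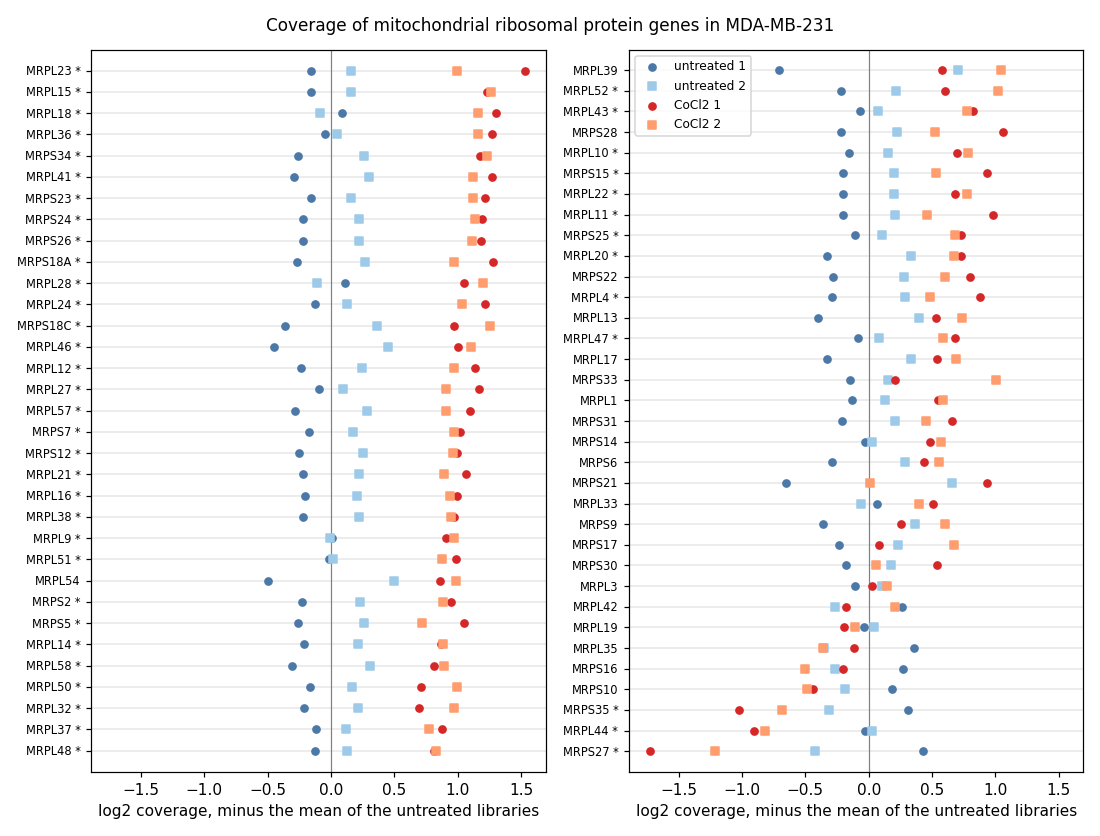
Coverage of the 67 tested mitochondrial ribosomal protein genes in each MDA-MB-231 library, as log2(coverage + 1) minus the mean of the untreated libraries. Points are libraries, rows are ordered by log2 change, and a star marks an adjusted p under 0.05. The CoCl2 points lie to the right of the untreated ones in most rows, and MRPS27, MRPL44 and MRPS35 lie at the bottom with the CoCl2 points to the left.

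The 3 members that fell encode 2 small-subunit proteins and 1 large-subunit protein, all without a bacterial counterpart. MRPS27 (ENSG00000113048, chr5:72219409-72320646, minus strand), a pentatricopeptide-repeat protein, had 195, 108, 43.0 and 62.0 reads. The CoCl2 values were the lower ones, and the untreated libraries themselves lay far apart (-1.47 ± 0.29, adjusted p = 0.00203). MRPS35 (ENSG00000061794, chr12:27710773-27756295, plus strand) had 328, 212, 129 and 164 reads, with no overlap (-0.85 ± 0.24, adjusted p = 0.00944). MRPL44 (ENSG00000135900, chr2:223957404-223967714, plus strand), which has a fold of the RNase III family, had 81.8, 85.0, 44.0 and 46.8 reads. Its replicates lay close together in both groups (-0.86 ± 0.27, adjusted p = 0.0165). Coverage had a negative log2 change in 7 members in all, the other 4 being MRPL19, MRPL35, MRPS10 and MRPS16.

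By subunit, coverage rose in 31 of 43 large-subunit members tested and fell in 1 (median 0.83 on the log2 scale). In the small subunit it rose in 11 of 24 and fell in 2, with a median of 0.70. Among members with a bacterial counterpart 26 of 41 rose and 0 fell (limma, adjusted p under 0.05), and among those specific to mitochondria 15 of 25 rose and 3 fell. Of all genes 24.1% rose and 19.4% fell. The differences between the groups of members were not tested.

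Transcript length moved with the change. Members had short annotated transcripts, with a median of 1353 bases against 2523 bases for all genes tested. Among genes under 1000 bases coverage rose in 11 of 15 members and in 292 of 392 genes, or 73.3% and 74.5%. From 1000 to 2000 bases it rose in 26 of 39 members (66.7%) and in 770 of 1493 genes (51.6%). Over 2000 bases it rose in 5 of 13 members (38.5%) and in 303 of 3775 genes (8.03%). The untreated libraries also differed from each other in this way. From untreated 1 to untreated 2 the median log2 difference was 0.45 for all genes under 1000 bases and -0.23 for those over 2000. Of the members 57 of 67 were higher in untreated 2 (median 0.40), and of all genes 2817 of 5673 (median -0.01). From CoCl2 1 to CoCl2 2 the median difference was -0.04 for the members and -0.01 for all genes. Whether the length trend belongs to the treatment or to library preparation cannot be told apart with these libraries.

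**Figure D3:**
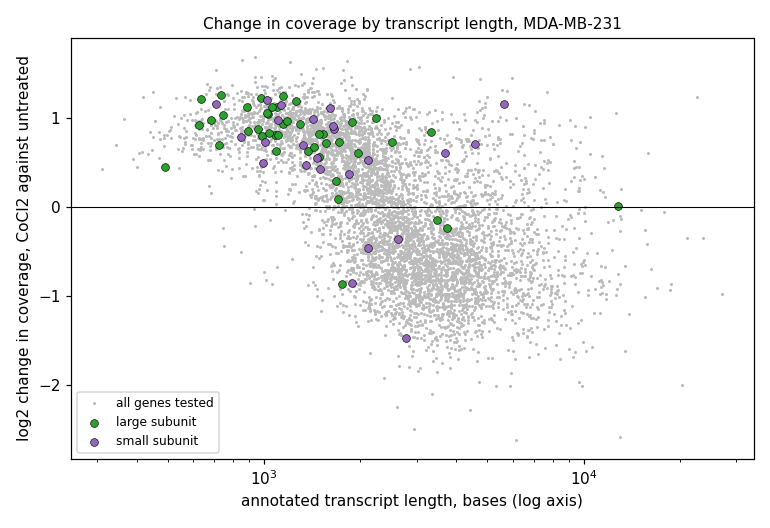
Log2 change in coverage, CoCl2 against untreated, by annotated transcript length in bases on a log axis. Grey points are all genes tested and coloured points the members of each subunit. Most members lie among the short transcripts with positive changes, with a median length of 1353 bases, and all genes pass from positive to negative changes as length grows.

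The length trend was then taken out of each library. Coverage then rose in 6 members and fell in 3, where 6.98% of 5660 genes rose and 4.56% fell, and the median log2 change of the members was 0.18 against -0.03 for all genes. The 6 were MRPS23, MRPS25, MRPL22, MRPL38, MRPL50 and MRPL57, all of which had risen before the trend was removed. By subunit 4 of 43 large-subunit members rose and 1 fell, and 2 of 24 small-subunit members rose and 2 fell. With a bacterial counterpart 1 of 41 rose and 0 fell, and among those specific to mitochondria 5 of 25 rose and 3 fell. Of the 42 earlier rises 8 had a negative change in this fit, none past the threshold, among them MRPL52, MRPL20 and MRPS15. The falls of MRPS27 (-1.17 ± 0.28, adjusted p = 0.0366), MRPS35 (-1.14 ± 0.27, adjusted p = 0.0332) and MRPL44 (-1.26 ± 0.24, adjusted p = 0.0183) passed in this fit too.

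MRPS23, a small-subunit protein specific to mitochondria (ENSG00000181610, chr17:57834781-57850056, minus strand), had 61.8, 77.4, 162 and 151 reads. Its log2 change of 1.17 became 1.64 ± 0.21 (adjusted p = 0.00892) once length was taken out, with an annotated length of 5621 bases. MRPS25, also specific to mitochondria, had 55.1, 64.2, 99.3 and 96.3 reads and went from 0.71 to 1.19 ± 0.21 (adjusted p = 0.0163). MRPL50 had 66.6, 84.1, 123 and 150 reads and went from 0.85 to 1.30 ± 0.24 (adjusted p = 0.0172). The annotated lengths of MRPS25, MRPL50 and MRPL57 were 4586, 3332 and 2246 bases, and that of MRPL38 was 1888 bases. MRPL22 had isoforms of 3176 and 784 bases. All genes over 2000 bases had a median log2 change of -0.44 before the trend was removed, so the fit moved long annotated transcripts up. These lengths are those of the annotated transcripts and not of the reads. MRPL57, with 54.7, 81.2, 143 and 126 reads, kept a change of 0.99 ± 0.24 (adjusted p = 0.0365). MRPL38 fell back from 0.96 to 0.67 ± 0.17 (adjusted p = 0.0386), and MRPL22 ended at 0.90 ± 0.23 (adjusted p = 0.0437).

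**Figure D4:**
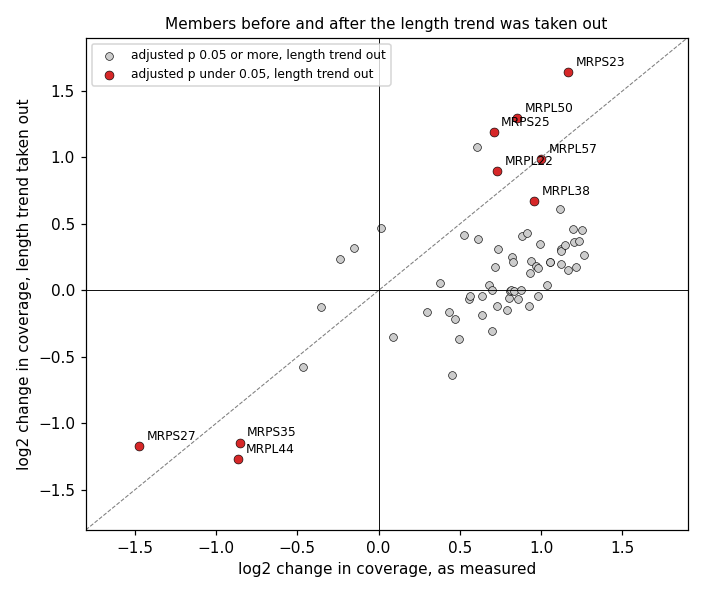
Log2 change in coverage of the 67 tested members as measured (horizontal) and after the length trend was taken out of each library (vertical). The dashed line marks equal values, and red points with names passed an adjusted p under 0.05 in the second fit. Most members drop to near 0, while 6 stay high and MRPS27, MRPS35 and MRPL44 stay low.

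The members had more edited reads with CoCl2, with 951 and 1129 listed in the untreated libraries and 1961 and 1712 in the treated ones. They made up 0.537% and 0.711% of all edited reads in the untreated libraries and 1.14% and 1.10% with CoCl2. The share of covering reads went from 0.565% and 0.665% to 0.880% and 0.867%. For single genes the edited reads were divided by relative depth and tested as log2(value + 1), which understates the change of genes with few reads. Of 55 members with enough edited reads, 12 rose and 1 fell, where 12.1% of 4097 genes rose and 2.90% fell. Of the 55, 11 met the filter only through the CoCl2 libraries, among them MRPL17 and MRPL51 of the 12, so their direction was set by the filter. With no filter 0 of the members and 0 of 9753 genes passed in limma (30 members and 1771 genes at an unadjusted p under 0.05), and the 12 had adjusted p values of 0.222 to 0.268. With TMM scaling 7 members rose and 2 fell, where 212 of 4097 genes (5.17%) rose and 200 (4.88%) fell. The median log2 change was 1.16 for the members and 0.19 for all genes, and 0.97 and -0.01 with TMM scaling. In edited reads the CoCl2 libraries both lay above the untreated ones in 46 members and below them in 2. Of all genes 41.3% and 26.5% did so. The 46 include the 11 members whose order was set by the filter, and the median of 1.16 includes them too. The same filter acted on all genes. Without either CoCl2 library 0 members rose, and 2 or 3 of all genes did. Without untreated 2, 25 of 65 members rose, as did 1079 of 4710 genes (22.9%), while 576 genes (12.2%) fell.

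MRPL15 had 6.61, 32.4, 69.8 and 71.5 depth-scaled edited reads (2.17 ± 0.56, adjusted p = 0.0336). Its untreated libraries lay far apart, although both stayed below the treated ones, and the log2 change was 1.10 without untreated 1 and 3.24 without untreated 2. MRPL17, the counterpart of a protein at the exit tunnel (ENSG00000158042, chr11:6680782-6683401, minus strand), had 3.77, 7.62, 25.7 and 22.8, a log2 change of 1.97 ± 0.52, on 4, 8, 25 and 21 edited reads before scaling. It is described only, since the filter let it through by its CoCl2 values, and its adjusted p was 0.222 with no filter. Its coverage of 46.1, 73.7, 85.0 and 94.6 reads did not pass in limma (0.61 ± 0.28, adjusted p = 0.0798), unlike that of the other 11 members called in edited reads. MRPS7, of the small-subunit head, had 14.2, 24.8, 68.8 and 58.5 edited reads, with no overlap (1.71 ± 0.38, adjusted p = 0.0298). MRPS24 had 13.2, 11.4, 42.1 and 46.6, with close replicates in both groups (1.77 ± 0.38, adjusted p = 0.0298). The other members called were MRPL51, MRPL4, MRPL52, MRPS34, MRPL21, MRPL24, MRPL38 and MRPL12, with log2 changes of 1.33 to 1.78. Of these MRPL51 is described only, since the filter let it through by its CoCl2 values. Its adjusted p was 0.222 with no filter (limma).

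MRPS27 was the member whose edited reads fell, with 36.8, 23.8, 10.3 and 10.8 (-1.41 ± 0.43, adjusted p = 0.0477). With the length trend taken out 2 members rose and 1 fell, where 5.60% of 4089 genes rose and 1.05% fell. The rises were those of MRPL38, with 34, 28.6, 78.1 and 93.2 edited reads (1.15 ± 0.33, adjusted p = 0.0387), and MRPL19, with 18.9, 14.3, 31.8 and 33.6 (1.46 ± 0.39, adjusted p = 0.0267). MRPL38 thus passed in both coverage and edited reads when length was accounted for, but the 2 measures come from the same reads and are not independent. The fall was that of MRPS35, with 67.0, 45.7, 19.5 and 30.3 edited reads (-1.42 ± 0.37, adjusted p = 0.0260), whose coverage fell as well.

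Editing per covering read divides abundance out. It is given as edited reads per 100 covering reads, with edited reads summed over positions. Over every listed isoform of the members the level was 14.8, 14.9, 18.5 and 17.6, against 15.6, 14, 14.3 and 13.9 for all genes. The treated libraries were the higher ones for the members, and untreated 1 was the highest for all genes. Single members, taken over the isoforms listed in every library, ranged from 2.58 to 42.9 in untreated 1 and from 4.29 to 50 in CoCl2 1. No member was called by limma on the logit among the 67 tested, and 0 of 5673 genes were (0% higher, 0% lower), with or without weights by coverage. At an unadjusted p under 0.05 there were 7 members, all higher with CoCl2, and 485 genes. The logit is the log2 of edited over unedited reads, with coverage counted once for each position edited in any MDA-MB-231 library. It is thus not the logit of the values per 100 covering reads. Its median change was 0.35 for the members, 0.41 for the cytosolic ribosomal proteins and 0.20 for all genes. The median SE was 0.37 for a member. The CoCl2 libraries were both higher in 29 members and lower in 8, against 30.1% and 9.64% of all genes.

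The 7 were MRPL17, MRPL19, MRPL51, MRPL4, MRPS7, MRPL57 and MRPS9, and none passed adjustment (lowest adjusted p = 0.517). MRPL17 had 8.25, 10.3, 30.1 and 24.1 edited reads per 100 covering reads (logit change 1.46 ± 0.35). MRPL19, a large-subunit protein with a bacterial counterpart, had 20.8, 14.7, 38.8 and 38.8 at a coverage of 91.3, 96.3, 81.9 and 87.0 reads (1.13 ± 0.37). In both the groups did not overlap. MRPS28 went the other way, with 22.2, 28.0, 7.14 and 14.8, on a coverage of 17.1 to 43.0 reads (-1.23 ± 0.54, adjusted p = 0.576). In MRPS27, whose coverage fell, the level was 19.0, 21.1, 23.8 and 17.5, with overlapping groups. In MRPL41, whose coverage rose, it was 12.8, 12.2, 13 and 12.8.

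Since a short coding sequence offers fewer C, editing was also expressed per 10000 reads of a coding C. The median over members was 9.18, 8.75, 11.3 and 10.9, against 6.27, 6.47, 7.59 and 7.20 over all genes and 6.75, 8.74, 10.6 and 10.5 over the cytosolic ribosomal proteins. An isoform had to be edited in every library to be counted, which keeps thinly covered genes only where they were edited. Among genes with a mean coverage of at least 100 the medians were 8.04, 8.67, 10.3 and 9.83 for 36 members. They were 5.62, 5.88, 6.78 and 6.47 for 2325 genes, and 6.46, 8.35, 9.29 and 9.08 for 66 cytosolic ribosomal proteins. Members differed widely among themselves. MRPL10 had 1.17, 3.14, 3.50 and 3.50, and MRPS26 had 3.12, 3.05, 6.33 and 3.53. MRPL13 had 10.4, 18.3, 23.8 and 27.3.

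Of the 67 members with an isoform listed in every MDA-MB-231 library 59 had 1 such isoform and 8 had 2. Over any of these libraries 125 isoforms of the members were listed, with 93 to 113 in a single library. In MRPL4 the isoform MRPL4-201 held 78.1%, 75.2%, 75.7% and 75.7% of the coverage of the pair. In MRPL42, MRPL42-206 held 69.3%, 82.7%, 86.3% and 88.9%, and the second isoform had at most 21.9 reads. The pair in MRPL24 has the same coding length, and its shares of 52.2%, 53.6%, 48.4% and 56.1% for MRPL24-201 crossed between the groups.

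In HEK293T the same genes were thinly read. Members listed numbered 7, 6 and 5 in the APOBEC1-only libraries and 17, 22 and 30 in the Ribo-STAMP libraries, 45 in all. Their edited reads were 8, 7 and 9 with the free deaminase and 70, 86 and 134 with the fusion. Per 100 covering reads this was 5.84, 2.87 and 6.82 against 20.7, 19.6 and 25.5, with no overlap. All genes stood at 3.16, 3.13 and 3.64 against 32.4, 32.3 and 32.8, so in Ribo-STAMP cells the members lay below all genes in each library. This level sums edited reads over positions, and a short coding sequence offers fewer C. It was not expressed per coding C in HEK293T, so the order is not one of editing per C. The members' levels in APOBEC1-only cells rest on fewer than 10 edited reads a library.

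MRPS27 was the most edited member in HEK293T, with 0, 2 and 3 edited reads in APOBEC1-only and 26, 13 and 28 in Ribo-STAMP libraries, which did not overlap. It was the single member that passed the filter on low values, and only through the Ribo-STAMP libraries, so its direction was set by the filter and its log2 change of 3.14 is a description. Of the 654 genes tested 99.7% rose and 0.153% fell. Under TMM scaling, which removes the shift common to all genes, its change was 0.23 (limma, adjusted p = 0.914). MRPL3 had 0, 1 and 0 against 5, 9 and 16 edited reads, and MRPS35 had 2, 0 and 0 against 8, 8 and 12. MRPL37 had 1, 0 and 2 against 5, 9 and 12. In each of these the fusion gave more edited reads in all 3 libraries. With no filter, 6 of 45 members (13.3%) rose, namely MRPS27, MRPL3, MRPS35, MRPL37, MRPL15 and MRPS16, where 2267 of 7004 genes (32.4%) rose and 0 fell. MRPL38 was listed in Ribo-STAMP 3 alone, with 9 edited reads, and MRPL42 in Ribo-STAMP 1 and 2 with 3 and 6. No member had an isoform listed in every HEK293T library, so 0 entered the test per covering read, in which 95.7% of 392 genes rose and 0% fell.

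**Figure D5:**
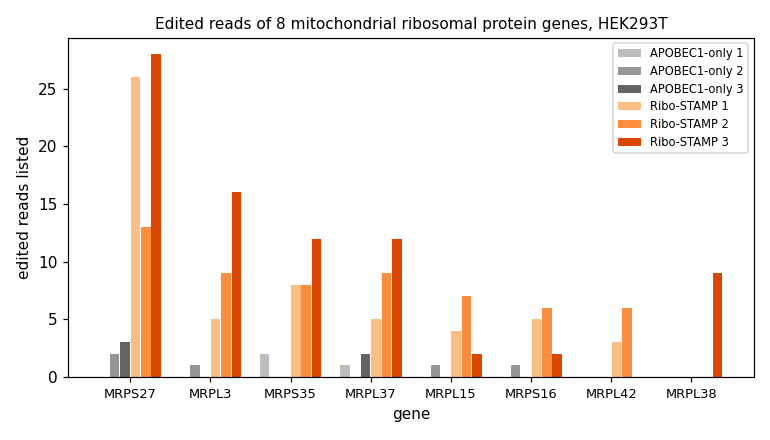
Edited reads listed in each HEK293T library for the 8 mitochondrial ribosomal protein genes with the most depth-scaled edited reads in Ribo-STAMP cells. Grey bars are APOBEC1-only and orange bars Ribo-STAMP libraries. MRPS27 reaches 26, 13 and 28 in Ribo-STAMP against at most 3 in APOBEC1-only cells, and MRPL38 appears in 1 library only.

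The other genes of mitochondrial translation did not move as one. Of the mitoribosome proteins with other names 5 were tested for coverage in MDA-MB-231. AURKAIP1 (141, 150, 335 and 342 reads) and GADD45GIP1 (141, 229, 508 and 463) rose, and PTCD3 (185, 119, 60.9 and 52.2), a pentatricopeptide-repeat protein of the small subunit, fell. With the length trend taken out GADD45GIP1 (1.06, adjusted p = 0.0181) and PTCD3 (-0.91, adjusted p = 0.0272) passed in limma, and AURKAIP1 did not (0.36, adjusted p = 0.213). Of 13 tested translation factors and tRNA modifiers 3 rose and 3 fell, and the median was -0.18 on the log2 scale. Of all genes tested for coverage 24.1% rose and 19.4% fell, or 6.98% and 4.56% with the length trend taken out. TUFM, the elongation factor that brings aminoacyl-tRNA, had 503, 507, 996 and 846 reads (0.86 ± 0.19, adjusted p = 0.00274). GFM1, the translocation factor, had 39.0, 40.6, 25.6 and 17.4 (-0.88 ± 0.35, adjusted p = 0.0468). With the length trend taken out 2 of 12 rose, namely TUFM (0.72, adjusted p = 0.0241) and MRRF (1.19, adjusted p = 0.0359), and 0 fell. GFM1 was then at -0.40 (adjusted p = 0.361).

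Coverage of assembly factors rose in 8 of 20 and fell in 1, against 24.1% and 19.4% of all genes, with a median of 0.65. C1QBP was the most covered of those that rose, at 771, 943, 1578 and 1587 reads, and MTG2, a GTPase of large-subunit assembly, had 59.9, 51.0, 115 and 125. DHX30, an RNA helicase, fell, with 332, 151, 109 and 128 reads and untreated libraries far apart. With the length trend taken out 4 of 20 rose and 0 fell, against 6.98% and 4.56% of all genes, with a median of 0.28. MTG2 passed (1.46, adjusted p = 0.00892), while C1QBP (0.10, adjusted p = 0.619) and DHX30 (-0.44, adjusted p = 0.282) did not. Of 16 mitochondrial tRNA ligase genes 1 rose and 2 fell, with a median of -0.40. With the length trend taken out 0 of 16 passed in limma (3 at an unadjusted p under 0.05).

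The cytosolic ribosomal proteins, which are short transcripts as well, gave the nearest comparison. Their coverage rose in 61 of 76 and fell in 0 (limma), against 24.1% and 19.4% of all genes. The median was 0.76, beside the 0.81 of the members. With the length trend taken out they rose in 11 of 75 and fell in 2, against 6.98% and 4.56% of all genes. The median was then -0.03 beside 0.18. In edited reads 34 of 74 rose and 0 fell, against 12.1% and 2.90% of all genes. Their median was 1.21 beside the 1.16 of the members, or 0.34 beside 0.36 with the length trend taken out. The logit of editing per covering read had a median change of 0.41 beside 0.35. The differences between the sets were not tested.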

How the data were processed

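Long-read libraries of HEK293T (3 APOBEC1-only, 3 Ribo-STAMP) and MDA-MB-231 (2 untreated, 2 CoCl2) were grouped by their labels. The authors deposited 1 text file per library without a header, in which each entry is a pair of whole numbers, read from the values as edited and covering reads at a coding position of an isoform, and at least 1 read is edited. What aligned the reads, called the edits and handled strand or near-identical gene copies is not given in the sources used here. Per the submitters' processing notes hg19 and hg38 were both used, with no role stated. MDA-MB-231 positions matched GENCODE 29 on GRCh38, and coordinates are given there only.

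Libraries were scaled to each other by the median ratio of coverage (relative depth) over 7313 (MDA-MB-231) or 405 (HEK293T) isoforms listed in every library. Genes tested for edited reads had 10 or more in at least as many libraries as 1 group holds. Those tested for coverage or the logit had an isoform listed in every library of the line and a mean coverage of 10. TMM factors were computed with trims of 30 and 5%. In R 4.3.3, limma 3.58.1 was run with its trend option on log2(value + 1), or on the logit with 0.5 added, two-sided, with Benjamini-Hochberg adjustment over all genes tested and a threshold of 0.05. The length trend was a loess fit (span 0.5) per library. The limma fit was tested on simulated MDA-MB-231 edited reads, coverage and logits with known changes. The length trend, TMM scaling and the handling of positions were not part of that test.

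The members and lists were chosen with earlier results of these data known. Named are, per measure, up to 12 members past the threshold in each direction, the 8 most covered members, the 8 most edited in HEK293T and the 8 most edited positions, and from each other list up to 5 genes a direction. MRPL10, MRPL13, MRPS26, MRPL41 and the genes named for their isoforms or for editing per read were chosen after their values were seen, as was the restriction of editing per coding C to a mean coverage of at least 100. The alternatives were scaling, pseudocount, filters, limma-voom, the count of positions, isoforms used, weights, the replicate block, the length trend and leaving out each library. Depth limits low genes: intervals are given as SE, and reads need not be independent molecules.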

Additional observations from a re-analysis of the deposited data

How the results depend on the processing

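For edited reads in MDA-MB-231 12 members rose as reported, MRPL17 and MRPL51 included. With TMM scaling the number was 7, where 5.17% of all genes rose against 12.1% as reported. It was 3 with positions of at least 20 covering reads (3.29% of all genes) and 2 with the length trend taken out (5.60%). With no filter, with positions of at least 2 edited reads or with the number of edited positions it was 0. Of all genes 0%, 1.09% and 0% then rose. The number that fell, 1 as reported, was 2 with TMM scaling and 0 with no filter, limma-voom, positions of at least 20 covering reads, positions of at least 2 edited reads or the number of positions. Leaving out 1 library at a time gave 0 to 25 rises and 0 to 2 falls. In coverage the 42 rises became 6 with the length trend taken out, and leaving out 1 library gave 0 to 54 rises and 0 to 6 falls. Without 1 of the CoCl2 libraries that group is a single library, assumed to vary like the untreated ones. Editing per covering read had 0 calls under each of its alternatives. In HEK293T the 1 member that rose became 0 with TMM scaling and 6 with no filter. Of all genes there 99.7% rose, or 3.82% with TMM scaling and 32.4% with no filter.

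Deviations of same-numbered MDA-MB-231 libraries had correlations of 0.02 in edited reads and 0.02 in coverage. Those of the HEK293T pairs were 0.09, 0.12 and 0.33 in edited reads, the measure in which a member was tested, and 0.23, 0.44 and 0.58 in coverage. The numbers were not taken as pairs, because 1 HEK293T pair was under 0.1 in edited reads, and the HEK293T coverage values alone would have passed. With the replicate block 21 members rose and 2 fell in edited reads, where 783 of 4097 genes rose and 305 fell. In coverage 44 members and 1305 of 5673 genes rose, or 7 members and 383 of 5660 genes with the block and the length trend taken out. In HEK293T the block changed no member call. Of the single-gene values recomputed, 197 kept their side of the threshold and 146 did not pass it, and none changed direction.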
